A study of Homo sapiens with 6 samples.

Results

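The genes described here are those of adhesion to the extracellular matrix and of invasion in HT29, a human colon adenocarcinoma cell line: integrins, laminins and other matrix proteins, matrix proteases with their inhibitors, and markers of mesenchymal cells. Members were the probe sets whose platform annotation names 1 of 39 listed genes alone. This gave 96 of 54675 probe sets and 36 of the 39 genes, out of 19775 genes with a probe set of their own. The probe sets of ITGB6 name a further gene as well and were left out, and LAMA3 and COL17A1 were not analysed here. Each gene was read from its brightest probe set, the one with the highest mean over all arrays, and further probe sets are given for some members.

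Total RNA of 3 NS398-treated and 3 control HT29 samples was hybridised on 1 HG-U133 Plus 2.0 array each. NS398 is a selective inhibitor of cyclooxygenase-2 (COX2). By the methods of the study, the treated cells received the highest of the doses tested, dissolved in DMSO, for several days, and the controls received DMSO alone. Both groups were kept in serum-free medium and belong to the same established line, so no stromal cells were part of the cultures. The study describes the arrays of each group as biological replicates. Whether they came from separate cultures is not stated in the labels, so the p-values cover no more than the spread between these samples. In bulk RNA, fewer cells that express a gene and less RNA per cell cannot be told apart.

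Integrins are receptors made of an alpha and a beta chain that anchor the cell to collagen, laminin or fibronectin. Colon epithelium rests on a basement membrane of laminin and type IV collagen, and laminin receptors hold it there. Matrix metalloproteinases (MMPs) cut matrix proteins and are blocked by the tissue inhibitors (TIMPs), while the urokinase PLAU, bound to its receptor PLAUR, activates plasminogen.

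The signals carry no common unit of amount, and the median signal was 76 to 80.2 in NS398 arrays and 65 to 80.1 in control arrays. Across bright probe sets (mean log2 signal over 7), Pearson's r lay between 0.961 and 0.983 for arrays of one group and between 0.931 and 0.952 for arrays of different groups. Of the marker genes measured, 8 of 12 of colon epithelium had a mean signal above 128, against 1 of 12 of fibroblasts, 1 of 9 of endothelium and 2 of 9 of leukocytes. CDX1, CDX2, CDH17 and GPA33 were the epithelial markers at or below it. The 3'/5' ratio of control probe sets is a measure of RNA integrity. For ACTB it was 1.56 ± 0.13 in NS398 and 1.29 ± 0.03 in control arrays (SD, n = 3 each). For GAPDH it was 1.1 ± 0.09 in NS398 and 1.03 ± 0.06 in control arrays, with overlapping groups. The part of RNA integrity in the results was not tested.

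Each probe set was tested with limma on its log2 signal, with a prior variance that follows the signal level, and its p-value was adjusted after Benjamini and Hochberg for all 54675 probe sets. Genes are said to have risen or fallen where this adjusted p was under 0.05. Signals of a group are geometric means, and each difference is the log2 mean of NS398 minus that of control arrays, given with its standard error (SE) in the fit. By this test ITGA1, ITGA2, FN1, TGFBI, MMP7 and TNS2 fell and LUM rose, so that 6 member genes were lower, 1 was higher and 29 did not pass. The 7 genes called are 19.4% of the members, beside 10.1% of all genes (5.23% higher and 4.85% lower). Among genes with a mean log2 signal above 7, 6 of 26 members passed, beside 17.7% of all such genes. The median difference was -0.13 over the members and 0.07 over all genes. NS398 and control arrays did not overlap in 13 members (4 higher and 9 lower), against 30.6% of all genes (17.2% higher and 13.5% lower). Counted by probe set, 2 of the 96 were higher and 8 lower, against 6.43% of all probe sets (3.26% higher and 3.17% lower).

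Centring each array on its median instead lowered every difference by 0.12. It took the share of higher ones among all probe sets called to 30.8%, against 50.7% without centring, and called 1 higher and 7 lower members, ITGB8 being added. Directions follow the deposited labels. For TGFBI, FN1, TNS2 (TENC1 in the study) and the probe set read here as ITGA1, they are opposite to those in the gene lists of the study. Whether the labels or those lists are exchanged cannot be told from the files used here. The calls also rest on the prior variance. With a single prior variance for all levels, limma called 0 members (10 at an unadjusted p under 0.05) and 0.0759% of all genes (0.0439% of all probe sets). The statistic of SAM, a method the study names, called 0 members and 1 probe set at a permutation-based false discovery rate under 0.05. This statistic was computed here on the log2 of the deposited signals, whereas the study applied SAM to gcRMA values at p under 0.05. These SAM counts are therefore not those of the study's own test.

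**Figure D1:**
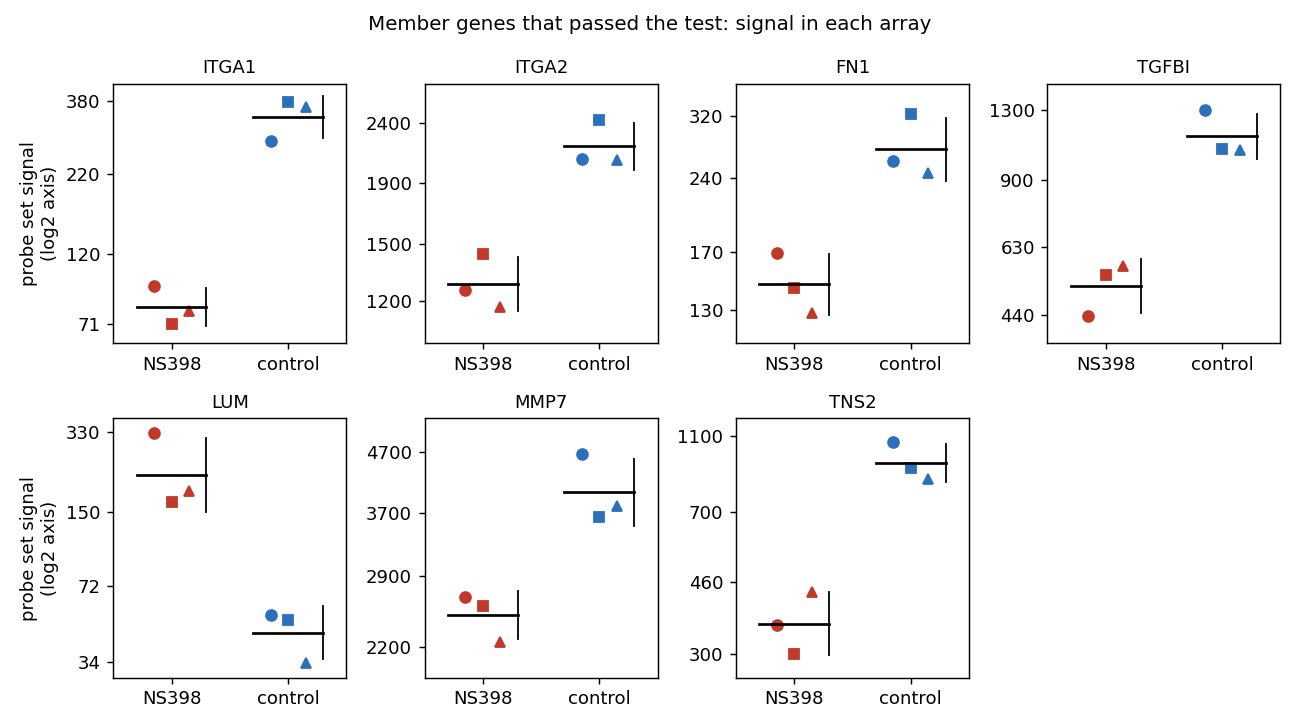
Probe set signal on a log2 axis of the 7 member genes that passed the test, in 3 NS398 arrays (red) and 3 control arrays (blue); circle, square and triangle are replicates 1, 2 and 3. Horizontal lines are group means of the log2 signal and vertical lines their SD. NS398 and control arrays do not overlap in any of the 7 genes, and only LUM, of these 7, is higher in NS398 arrays.

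Promoter windows of 3 genes that fell are shown, chosen for their roles: the matrix protease MMP7 and the collagen-binding integrin chains ITGA1 and ITGA2, whose genes lie near each other on chromosome 5. The window of ITGA1 is shared with PELO, which has the same annotated start. They are RefSeq windows on GRCh38.p14 and reach from 250 bases before to 50 bases after the annotated start, 5′ to 3′ on the strand of the gene. The window of MMP7 is chr11:102530698-102530997 on the minus strand, that of ITGA1 is chr5:52787666-52787965 and that of ITGA2 is chr5:52989102-52989401, both on the plus strand. Capitals mark matches to the AP-1 site (TGAGTCA or TGACTCA), the TATA box (TATAAA) and the GC box (GGGCGG), each searched on both strands.
MMP7: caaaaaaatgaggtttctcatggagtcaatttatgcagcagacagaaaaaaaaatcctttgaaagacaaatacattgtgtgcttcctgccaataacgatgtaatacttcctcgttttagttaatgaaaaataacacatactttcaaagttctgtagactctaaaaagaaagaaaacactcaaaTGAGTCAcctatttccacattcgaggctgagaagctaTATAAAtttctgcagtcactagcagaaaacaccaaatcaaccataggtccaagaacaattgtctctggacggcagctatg
ITGA1: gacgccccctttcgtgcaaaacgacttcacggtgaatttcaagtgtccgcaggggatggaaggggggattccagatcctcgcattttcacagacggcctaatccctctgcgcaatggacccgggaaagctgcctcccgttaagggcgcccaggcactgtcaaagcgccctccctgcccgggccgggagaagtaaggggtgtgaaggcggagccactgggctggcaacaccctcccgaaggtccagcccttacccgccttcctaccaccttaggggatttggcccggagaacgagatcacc
ITGA2: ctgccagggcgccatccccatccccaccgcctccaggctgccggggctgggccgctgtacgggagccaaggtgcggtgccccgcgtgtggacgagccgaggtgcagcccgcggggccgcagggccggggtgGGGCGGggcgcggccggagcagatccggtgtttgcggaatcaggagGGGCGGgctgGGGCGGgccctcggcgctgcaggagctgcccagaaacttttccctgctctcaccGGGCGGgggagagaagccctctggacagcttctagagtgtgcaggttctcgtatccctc

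The window of MMP7 held an AP-1 match at -67 and a TATA match at -30 from the start, that of ITGA2 held GC boxes at -119, -73, -63 and -9, and that of ITGA1 held no match. A window was found for 29 of the 36 members. AP-1 letters stood in 3 of them (MMP7, ITGA5 and PLAUR), beside 4.95% of all 35116 windows. Those windows outnumber the 19775 genes analysed and were not matched to the members, for which 1 window each was read. GC boxes stood in 22 of 29 windows, beside 45% of all, TATA letters in 3 of 29, beside 11.5% of all, and the E-box CAGGTG, to which repressors such as SNAI2 and ZEB1 bind, in 5 of 29, beside 20.6% of all. Of the called members with a window, MMP7 alone had AP-1 letters (1 of 6), and 0 of 6 had an E-box. A match is a description of the letters and not a binding site.

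Of the integrin members, the collagen-binding alpha chains ITGA1 and ITGA2 fell, and the other chains did not pass. The remaining collagen-binding chains, ITGA10 and ITGA11, were dim and did not pass either. ITGA1, which pairs with beta1 to bind collagen and laminin, had signals of 94.6, 70.9 and 78.6 in NS398 arrays and 281.7, 377.5 and 363.1 in control arrays. The groups lay far apart and ITGA1 was 4.18-fold lower in NS398 arrays (-2.07 ± 0.26 SE, limma adjusted p = 0.000842). Its other 2 probe sets were dim, and both differences were negative without passing the test. One of them, 214660_at, had 28.4, 35.2 and 21.5 in NS398 arrays and 69.7, 69.6 and 73.2 in control arrays. There the groups did not overlap (-1.35 ± 0.52, adjusted p = 0.179), while those of the dimmest probe set did. Averaged over its probe sets, 226731_at among them, ITGA1 passed (-1.315, limma adjusted p = 0.0434). The gene list of the study names the probe set that passed, 226731_at, PELO, a ribosome rescue factor whose gene overlaps the 5′ part of ITGA1, and the annotation used here names it ITGA1. The brightest probe set that this annotation gives to PELO rose, with 2644.0, 2902.7 and 2743.6 in NS398 arrays and 1909.6, 1940.0 and 1792.8 in control arrays (0.56 ± 0.11, limma adjusted p = 0.0101). The call of ITGA1 rests on 1 probe set whose gene the annotations give differently.

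ITGA2, the alpha chain of the main collagen receptor of epithelial cells, had 1252.9, 1440.2 and 1172.2 in NS398 arrays and 2082.2, 2432.8 and 2078.2 in control arrays. The groups did not overlap, with a difference of -0.77 ± 0.13 (1.71-fold lower, limma adjusted p = 0.00466). The second probe set of ITGA2, 205032_at, had 714.5, 630.2 and 793.9 in NS398 arrays and 837.3, 601.3 and 1160.6 in control arrays, and there the groups overlapped (-0.24 ± 0.22).

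The chains grouped here as laminin-binding, ITGA6, ITGB4 and ITGA3, stood on the opposite side of 0, and none of these 3 passed the test. ITGA1 and the shared chain ITGB1, which also serve laminin receptors, had negative differences. ITGA6, which joins beta4 in the hemidesmosome, had 6303.9, 5422.7 and 5341.3 in NS398 arrays and 4798.5, 3389.2 and 4160.4 in control arrays (0.48 ± 0.13, adjusted p = 0.0605). These groups did not overlap, while those of its second probe set did (0.17 ± 0.16). ITGB4, its hemidesmosomal partner, had 6922.0, 7029.9 and 8700.3 in NS398 arrays and 7556.8, 4869.1 and 4155.8 in control arrays. Here control replicate 1 lay inside the range of the NS398 arrays (0.49 ± 0.19, adjusted p = 0.181). ITGA3, the alpha chain of the laminin-332 receptor alpha3beta1, had 947.0, 1025.1 and 1204.8 in NS398 arrays and 962.0, 582.5 and 615.4 in control arrays. Again control replicate 1 alone overlapped the NS398 arrays (0.59 ± 0.20, adjusted p = 0.12).

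The chains that bind the RGD sequence of fibronectin and vitronectin, ITGA5, ITGAV, ITGB5 and ITGB8, had negative differences, between -0.71 and -0.25, and 0 of these 4 passed. ITGB8, which with alpha V activates latent TGF-beta, came closest, with 1226.4, 1279.4 and 944.2 in NS398 arrays and 1406.5, 2245.7 and 1958.2 in control arrays. The groups did not overlap and the difference of -0.69 ± 0.18 had an adjusted p of 0.051. ITGA5, the fibronectin receptor chain, was dim and scattered, with 153.4, 25.3 and 19.6 in NS398 arrays and 155.1, 118.8 and 18.0 in control arrays, so that these arrays set no order. ITGAV averaged 3965 in NS398 and 4709 in control arrays (-0.25 ± 0.12), and ITGB5 averaged 3169 in NS398 and 3997 in control arrays (-0.34 ± 0.16).

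ITGB1, the beta chain shared by the collagen, laminin and fibronectin receptors, averaged 16067 in NS398 and 17787 in control arrays, and its brightest probe set did not pass (-0.15 ± 0.10, adjusted p = 0.468). Another bright probe set, 1553678_a_at, did pass, with 5600.5, 4687.7 and 4399.3 in NS398 arrays and 7566.0, 6552.6 and 6675.3 in control arrays (-0.51 ± 0.12, limma adjusted p = 0.0233). A further one, 1553530_a_at, differed by -0.49 ± 0.14 (adjusted p = 0.0593), and neither of these 2 overlapped between groups. The bright probe sets of ITGB1 thus had one direction and unequal sizes, and the remaining 4 were dim with positive differences and wide errors.

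**Figure D2:**
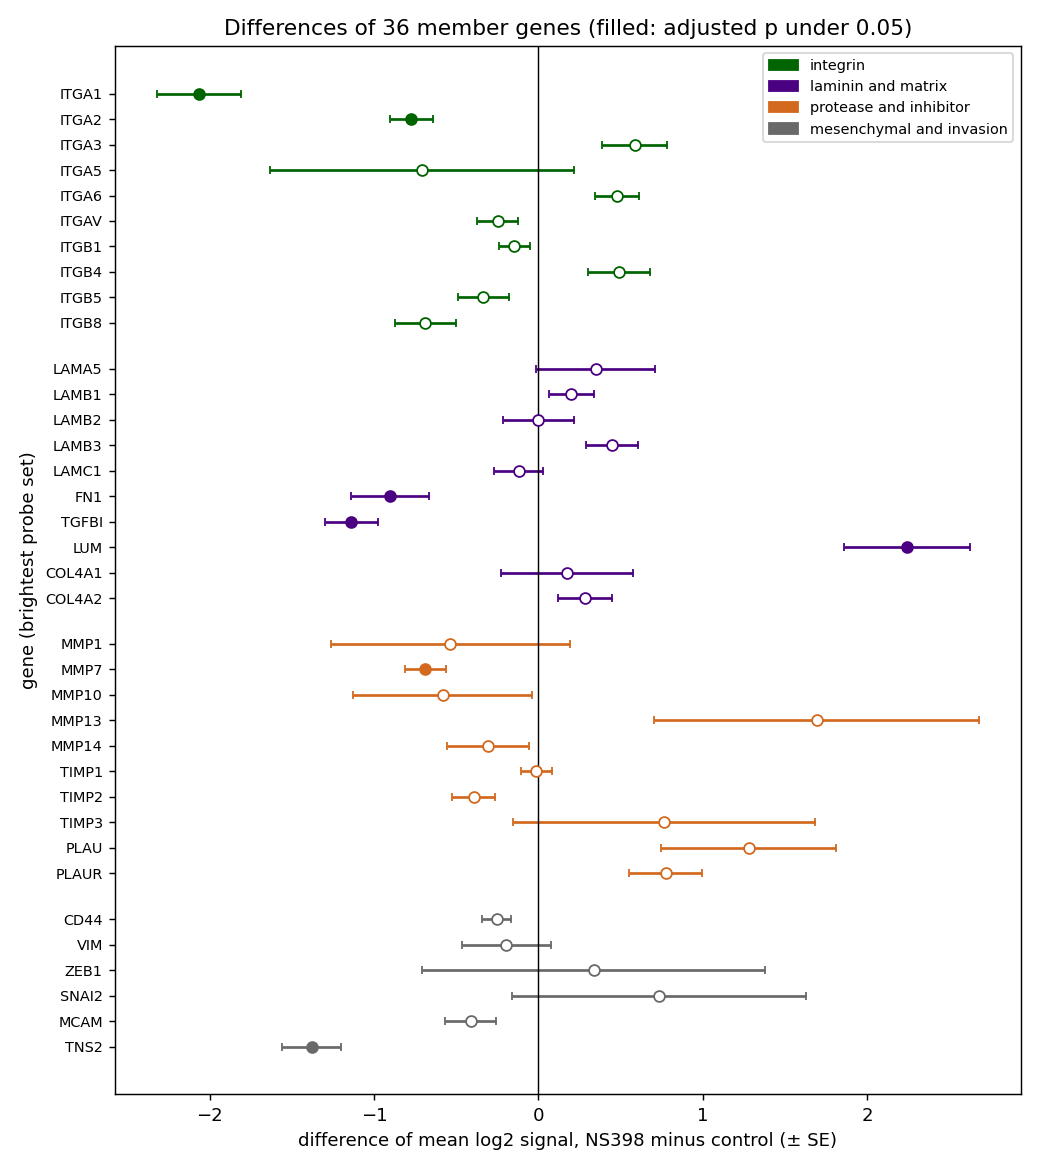
Difference of mean log2 signal, NS398 minus control, with its SE (horizontal bars), for the brightest probe set of each of the 36 member genes in 4 colours by group; filled points have an adjusted p under 0.05. The 6 filled points left of 0 are ITGA1, ITGA2, FN1, TGFBI, MMP7 and TNS2 and the 1 right of 0 is LUM, while the widest bars belong to dim genes such as ZEB1, MMP13 and TIMP3.

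The laminins, the cross-shaped trimers of the basement membrane, did not pass in any of 5 chains measured. LAMB3, the beta chain of laminin-332, had 4687.5, 3926.6 and 4508.1 in NS398 arrays and 4158.6, 2974.5 and 2644.1 in control arrays. Control replicate 1 overlapped the NS398 arrays, and the difference was 0.45 ± 0.16 (adjusted p = 0.138). LAMA5, the alpha chain of laminin-511, had 1948.0, 4000.6 and 4650.9 in NS398 arrays and 4207.6, 1609.2 and 2596.5 in control arrays, a spread within each group larger than the difference (0.35 ± 0.36). The beta chain LAMB1 averaged 5362 in NS398 and 4669 in control arrays (0.20 ± 0.14), and the gamma chain LAMC1 averaged 2619 in NS398 and 2846 in control arrays (-0.12 ± 0.15). The second probe set of LAMC1, also bright, lay on the other side of 0, with 1166 in NS398 and 942 in control arrays (0.31 ± 0.20). LAMB2 averaged 431 in NS398 and 432 in control arrays.

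Among the other matrix genes, TGFBI and FN1 fell and LUM rose. TGFBI, a secreted adapter between collagen and integrins that is induced by TGF-beta, had 436.9, 544.1 and 570.6 in NS398 arrays and 1298.9, 1058.1 and 1052.9 in control arrays. It was 2.2-fold lower in NS398 arrays (-1.14 ± 0.16, limma adjusted p = 0.00183), and the highest NS398 array stayed well below the lowest control array.

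FN1, fibronectin, had 169.6, 144.2 and 128.3 in NS398 arrays and 259.5, 323.5 and 245.2 in control arrays (-0.91 ± 0.24, limma adjusted p = 0.046). The groups did not overlap, but the call was lost when any 1 of the 6 arrays was left out (adjusted p between 0.0679 and 0.136). It was also lost when the 7 probe sets were averaged (-0.58, adjusted p = 0.513). Of its 7 probe sets, the brightest 4 had negative differences and the dimmest 3 positive ones. Besides the brightest, 216442_x_at fell, with 13.1, 34.7 and 50.9 in NS398 arrays and 132.1, 222.2 and 184.0 in control arrays (-2.62 ± 0.53, limma adjusted p = 0.0129). Both probe sets that passed carry the suffix x_at, by which Affymetrix marks probes that may bind other transcripts too.

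LUM, lumican, a small proteoglycan of fibrillar collagen, had 327.9, 165.5 and 184.0 in NS398 arrays and 54.2, 51.7 and 33.6 in control arrays. It was 4.73-fold higher in NS398 arrays (2.24 ± 0.38, limma adjusted p = 0.00514) at a low signal, with a mean log2 of 6.63. Its second probe set was dimmer still and did not pass (1.82 ± 0.87). LUM is also a fibroblast marker. The other 11 fibroblast markers summed to 815 to 1067 in NS398 and 752 to 1128 in control arrays, and 0 of these 11 passed. COL1A1, the one of them with a mean above 128, averaged 423 in NS398 and 303 in control arrays, and FAP averaged 72 in NS398 and 185 in control arrays, each with overlapping groups. THY1, with 76.7 in NS398 and 41.6 in control arrays, was the one of the 11 without overlap, while DCN averaged 53.4 in NS398 and 39.7 in control arrays. The median difference of all 12 markers was 0.44, and the part of fibroblast genes as a group in the change of LUM was not tested.

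The type IV collagen chains, the mesh of the basement membrane, did not pass. COL4A2 averaged 797 in NS398 and 655 in control arrays (0.28 ± 0.16). COL4A1, its head-to-head neighbour in the genome, was dim, with 88.6 in NS398 and 78.5 in control arrays (0.18 ± 0.40), and its second, dimmer probe set differed by -0.74 ± 0.95.

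**Figure D3:**
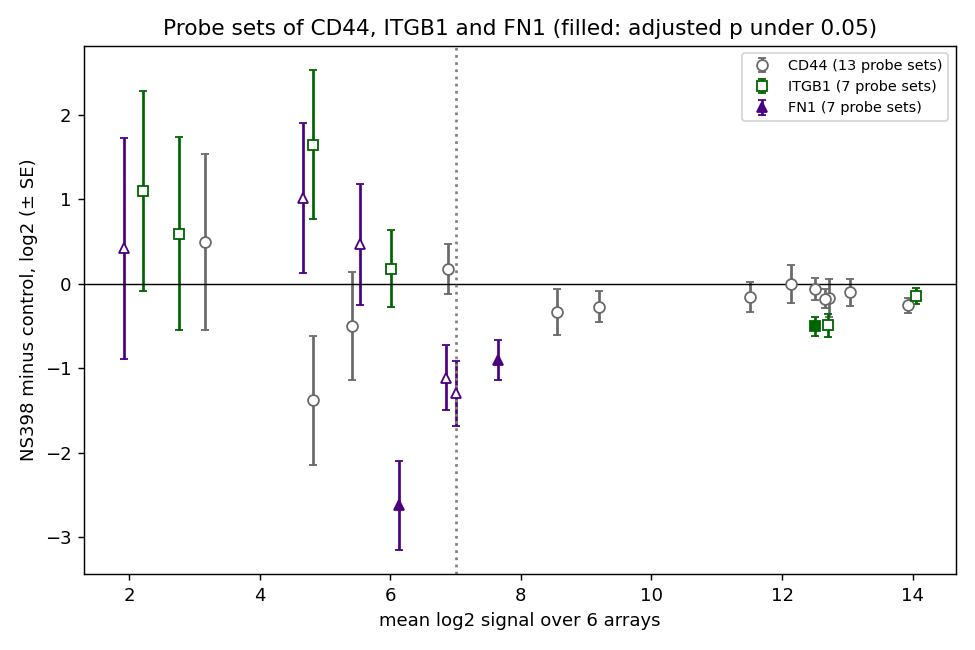
Difference NS398 minus control on the log2 scale (± SE) against mean log2 signal over 6 arrays for each of the 13 probe sets of CD44, 7 of ITGB1 and 7 of FN1; filled symbols have an adjusted p under 0.05 and the dotted line marks a mean log2 signal of 7. To the right of the line the 3 bright probe sets of ITGB1 and all 9 of CD44 lie at or below 0, and to its left the bars widen and the signs mix.

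Of the proteases and their inhibitors 1 of 10 passed. MMP7, matrilysin, an MMP that epithelial tumour cells themselves secrete and a known target of Wnt signalling in colorectal tumours, had 2672.1, 2582.4 and 2241.0 in NS398 arrays and 4662.8, 3651.5 and 3804.0 in control arrays. It was 1.61-fold lower in NS398 arrays (-0.69 ± 0.13, limma adjusted p = 0.00739), without overlap. The other MMPs were dim or did not differ beyond their spread. The collagenase MMP1 averaged 23.3 in NS398 and 33.7 in control arrays, the stromelysin MMP10 averaged 38.8 in NS398 and 58.1 in control arrays, and the collagenase MMP13 averaged 12 in NS398 and 3.71 in control arrays. MMP14, the membrane-bound activator of MMP2, averaged 174 in NS398 and 215 in control arrays (-0.31 ± 0.25).

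Of the inhibitors, TIMP1 averaged 9277 in NS398 and 9361 in control arrays, a difference of -0.01 ± 0.09. TIMP2 had 1804.0, 1852.0 and 2320.3 in NS398 arrays and 2863.6, 2381.2 and 2573.6 in control arrays. These groups did not overlap, and the difference of -0.39 ± 0.13 missed the threshold (adjusted p = 0.119). Of its 2 further probe sets, 1 also did not overlap (-0.47 ± 0.17), and the dimmest did, with 259 in NS398 and 258 in control arrays. TIMP3 was dim, with 41.6 in NS398 and 24.5 in control arrays (0.77 ± 0.92).

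Receptor and ligand of the urokinase system both had positive differences that did not pass at the brightest probe set. PLAUR, which holds urokinase at the cell surface, had 1052.7, 1007.5 and 1147.2 in NS398 arrays and 937.5, 483.7 and 535.3 in control arrays (0.78 ± 0.22, adjusted p = 0.0679). Its 3 probe sets were all without overlap, and the dimmest, 214866_at, rose, with 357.1, 329.0 and 238.5 in NS398 arrays and 168.1, 170.7 and 161.4 in control arrays (0.87 ± 0.23, limma adjusted p = 0.0488). Averaged over its probe sets, PLAUR passed (0.814, limma adjusted p = 0.0231). It passed in 5 of 16 alternatives to the test reported. PLAU, the protease itself, had 83.0, 134.0 and 75.7 in NS398 arrays and 64.0, 20.2 and 45.5 in control arrays, a dim signal with no overlap (1.28 ± 0.53, adjusted p = 0.22).

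Of the mesenchymal and invasion genes TNS2 alone passed among the 6 measured. TNS2, tensin 2, which ties the tail of beta integrins to the actin skeleton, had 357.9, 300.4 and 434.7 in NS398 arrays and 1060.5, 908.5 and 852.4 in control arrays. It was 2.6-fold lower in NS398 arrays (-1.38 ± 0.18, limma adjusted p = 0.00106), with a wide gap between the groups.

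CD44, the hyaluronan receptor and a marker of the crypt base, had 14841.5, 14995.7 and 13041.2 in NS398 arrays and 16276.0, 17635.8 and 17098.9 in control arrays. The groups did not overlap at this bright probe set (-0.25 ± 0.09, adjusted p = 0.138). Of its 13 probe sets 11 had negative differences and 0 passed. MCAM, an adhesion molecule of the immunoglobulin family, had 2022.5, 2611.8 and 3147.4 in NS398 arrays and 3478.0, 3018.3 and 3728.2 in control arrays, with 1 array of each group in the range of the other (-0.41 ± 0.16, adjusted p = 0.175). Its dim second probe set differed by 1.05 ± 1.07. The classical mesenchymal genes were dim or nearly so. The filament protein VIM averaged 151 in NS398 and 173 in control arrays, the E-cadherin repressor ZEB1 averaged 26.7 in NS398 and 21.1 in control arrays, and the related repressor SNAI2 averaged 22.9 in NS398 and 13.8 in control arrays.

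Several of these calls changed when 1 array was left out. Without control replicate 1 the test, now of 3 against 2 arrays, called 12 members (6 higher and 6 lower), beside 11.6% of all genes (6.04% higher and 5.52% lower). The 3 chains grouped as laminin-binding then passed: ITGA3 (0.82 ± 0.15), ITGA6 (0.60 ± 0.12) and ITGB4 (0.74 ± 0.12). So did LAMB3 (0.64 ± 0.11), PLAUR (1.07 ± 0.14) and, with a negative difference, ITGB8 (-0.88 ± 0.15). The limma adjusted p of these 6 genes lay between 0.00203 and 0.0154. In each of these 6, control replicate 1 was the control array nearest to the NS398 arrays. Leaving it out therefore had to widen the difference, and these calls are no independent evidence. Whether that array is faulty was not tested. FN1 no longer passed (-0.94 ± 0.27), and the other 6 genes kept their call. Leaving out any other single array gave 6 called members each.

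**Figure D4:**
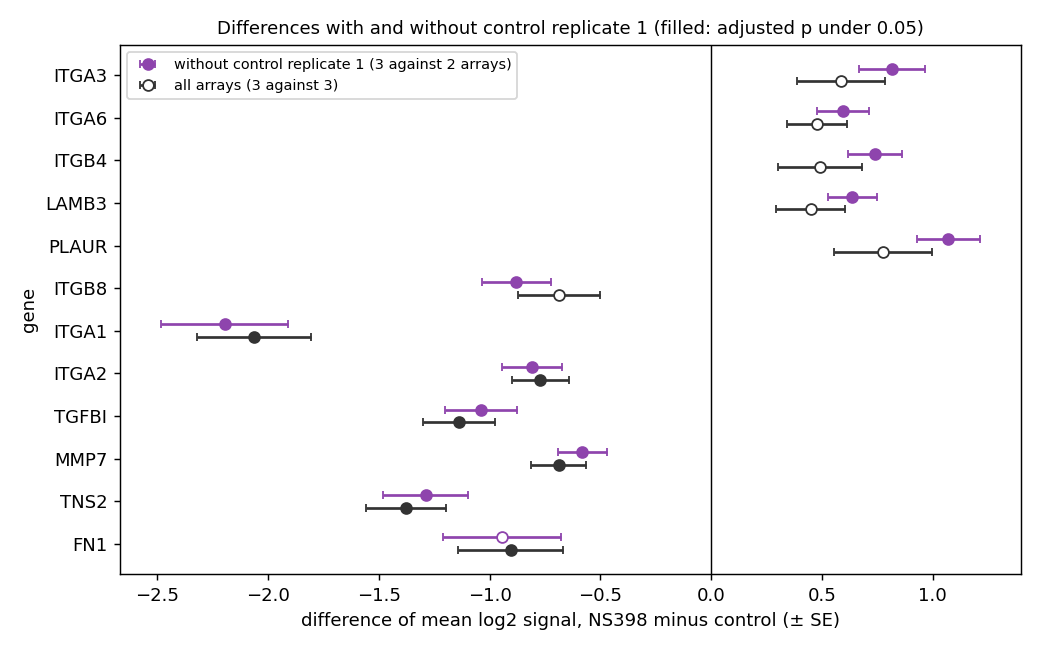
Difference of mean log2 signal, NS398 minus control, with its SE, for 12 member genes: purple points without control replicate 1 (3 against 2 arrays), black points with all arrays (3 against 3). Filled points have an adjusted p under 0.05. ITGA3, ITGA6, ITGB4, LAMB3, PLAUR and ITGB8 are filled only without that array, and FN1 only with it. For all genes filled only without it, that array was the control array nearest to the NS398 arrays.

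Other genes of the same systems were counted from 5 lists, drawn up by function, with earlier results of these data known. Of 16 other integrins measured, 0 rose and 1 fell (6.25% called), of 32 other matrix genes 0 rose and 2 fell (6.25%), and of 24 genes of the adhesion plaque 0 rose and 5 fell (20.8%). Of 34 other proteases and inhibitors 4 rose and 1 fell (14.7%), and of 20 other mesenchymal genes 0 rose and 2 fell (10%). Of all genes 10.1% were called, 5.23% higher and 4.85% lower. Above a mean log2 signal of 7, where 17.7% of all genes were called, 5 of 20 adhesion plaque genes passed. So did 5 of 21 proteases and inhibitors, 1 of 3 integrins, 2 of 7 matrix genes and 2 of 5 mesenchymal genes of these lists. The genes named next changed at least 2-fold at their brightest probe set. MMP28 has 5 probe sets of its own and ADAM8, HSPG2 and CCN1 have 2 each, and the further ones are not described here.

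Among the proteases and inhibitors, TIMP4, a TIMP best known from the heart, had 633.5, 595.3 and 541.1 in NS398 arrays and 138.6, 138.7 and 113.1 in control arrays (2.18 ± 0.20, limma adjusted p = 0.000132). MMP28, epilysin, an MMP of epithelia, had 420.8, 295.2 and 345.3 in NS398 arrays and 117.4, 52.6 and 60.7 in control arrays (2.28 ± 0.33, limma adjusted p = 0.00214). ADAM8, a membrane metalloprotease, had 468.9, 278.0 and 358.1 in NS398 arrays and 212.4, 153.4 and 176.9 in control arrays (1.01 ± 0.25, limma adjusted p = 0.0342). All 3 were higher in each NS398 array than in any control array.

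Of the matrix genes HSPG2, perlecan, the heparan sulfate proteoglycan of basement membranes, had 1709.9, 1700.2 and 2067.8 in NS398 arrays and 4537.8, 3912.1 and 3121.3 in control arrays (-1.07 ± 0.15, limma adjusted p = 0.00156). The matricellular proteins CCN2 and CCN1, integrin ligands and targets of the YAP pathway, fell furthest among the genes called in the 5 lists. CCN2 had 300.6, 663.4 and 505.7 in NS398 arrays and 3201.4, 2258.9 and 2923.8 in control arrays (-2.57 ± 0.25, limma adjusted p = 0.000196). CCN1 had 177.6, 343.6 and 452.0 in NS398 arrays and 2151.2, 1253.4 and 1408.2 in control arrays (-2.37 ± 0.31, limma adjusted p = 0.00111). Neither overlapped between groups.

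The remaining genes called in these lists changed by less than 2-fold and were chosen after their values were seen. All 5 genes of the adhesion plaque that passed were lower in NS398 arrays. The caveolar coat protein CAV1 averaged 532 in NS398 and 960 in control arrays, and CD151, the tetraspanin partner of laminin-binding integrins, averaged 2756 in NS398 and 4558 in control arrays. The tensin TNS3 averaged 1947 in NS398 and 3197 in control arrays, the docking protein NEDD9 averaged 1400 in NS398 and 2254 in control arrays, and vinculin, VCL, averaged 1536 in NS398 and 2156 in control arrays. The limma adjusted p of these 5 genes lay between 0.00335 and 0.0335. ITGAE, the alpha chain that binds E-cadherin, averaged 2667 in NS398 and 3908 in control arrays, and NTN4, a netrin of basement membranes, averaged 738 in NS398 and 1330 in control arrays. The lysosomal protease CTSL averaged 1301 in NS398 and 736 in control arrays, and the membrane serine protease ST14 (matriptase) averaged 2521 in NS398 and 4331 in control arrays.

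**Figure D5:**
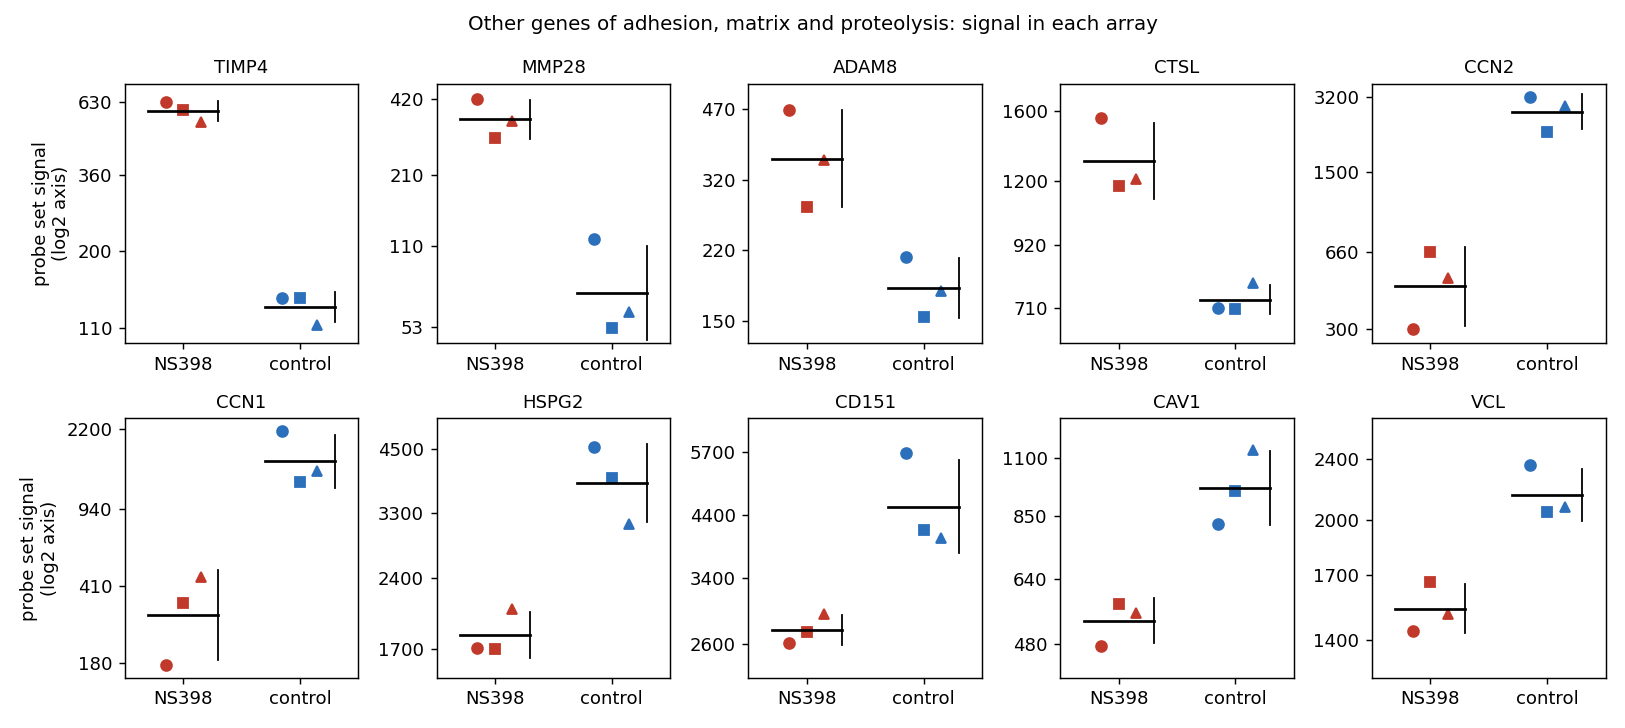
Probe set signal on a log2 axis of 10 other genes of adhesion, matrix and proteolysis that passed the test, in 3 NS398 arrays (red) and 3 control arrays (blue); circle, square and triangle are replicates 1, 2 and 3, horizontal lines are means of the log2 signal and vertical lines SD. TIMP4, MMP28, ADAM8 and CTSL are higher and CCN2, CCN1, HSPG2, CD151, CAV1 and VCL lower in NS398 arrays, with no overlap in these 10 genes.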

How the data were processed

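The authors deposited 1 linear intensity per probe set and array, scaled to a trimmed mean of 500 (2% removed at each end), which has the scale of MAS 5.0 signals and is not the quantile-normalised gcRMA described in the methods. Affy is named by the submitters' processing notes, with no version stated there. The log2 of each signal was taken without an offset, and arrays were not normalised again.

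Probe sets were named through the platform annotation, with symbols updated by Entrez number. Of 54675 probe sets, 41097 (75.2%) name 1 gene, 1801 (3.29%) several and 11777 (21.5%) none. Each was tested with lmFit and eBayes (trend and robust estimation) of limma 3.58.1 in R 4.3.3, treatment being the single term, with Benjamini-Hochberg adjustment over all probe sets at a threshold of 0.05. The procedure was tested on simulated data. The variance trend was chosen because dim probe sets are noisy. The members, the lists and this choice were made with earlier results of these data known.

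Named genes were by rule all members and, of 5 further lists, genes called with at least a 2-fold difference, at most 6 per list. Outside this rule, the remaining genes called in those lists were named after their values were seen. Promoter windows came from RefSeq (GRCh38.p14). Alternatives were a single prior variance, the SAM statistic, quantile normalisation, median centring, a floor on the mean log2 signal of 4 or 7, an offset of 32, array weights, averaging a gene over its probe sets, a replicate block and leaving out each array. The number of arrays limits the precision. Figures were drawn with matplotlib 3.10.9 in Python 3.11.15.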

Additional observations from a re-analysis of the deposited data

How the results depend on the processing

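Of 16 alternatives, ITGA1, ITGA2, TGFBI, MMP7 and TNS2 passed the test in all but the single prior variance and the SAM statistic, as did LUM, which was not tested with a mean log2 signal above 7. With a single prior variance 24 probe sets and 0 members, and with SAM 1 probe set and 0 members were called, against 3513 and 7 in the test reported. The count was thus 0 under both for integrins, laminin and matrix genes, proteases and inhibitors, and mesenchymal genes. Leaving out each array gave 1826 to 3984 probe sets, 6 to 12 members, 2 to 6 integrins, 2 to 3 laminin and matrix genes and 1 to 2 proteases and inhibitors. A mean log2 signal above 4, one above 7 and array weights each called 4 integrins and 2 proteases and inhibitors (ITGA6, ITGB8 and PLAUR were gained). Averaging a gene over its probe sets called 2 proteases and inhibitors (PLAUR was gained), and quantile normalisation called 2 mesenchymal genes (CD44 was gained). Changes of call outside the left-out arrays and filters have a cause that was not tested.

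The 6 arrays' replicate numbers did not pair the samples (r of same-numbered deviations -0.137, -0.0633 and -0.104). With the replicate number as a block 2462 probe sets and 6 members were called, FN1 being lost.

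Of the differences, 505 kept direction and call, 22 lost and 20 gained the call, and 18 reversed, none of them called. The single prior variance, the SAM statistic, the floors on the signal and the replicate block leave the difference itself unchanged. Under these a direction could not reverse, so the 505 is no measure of how stable the directions are. FN1 was lost by averaging over probe sets as well. That averaging reversed ITGB1 (0.34), LAMC1 (0.094), COL4A1 (-0.28), TIMP3 (-0.001), VIM (0.022) and MCAM (0.32). LAMB2 reversed with quantile normalisation (0.023) and array weights (0.066). With arrays left out LAMB2 ranged over -0.14 to 0.20, COL4A1 over -0.11 to 0.50, TIMP1 over -0.080 to 0.039, TIMP3 over -0.25 to 1.66, VIM over -0.372 to 0.009 and ZEB1 over -0.76 to 0.99. Median centring removes a shift of 0.12 between the groups' array medians. It moved the share of higher calls among all probe sets called to 30.8%, against 50.7% without it, and called 8 members (1 higher, 7 lower; ITGB8 gained). Dim signals limit what LUM, PLAU, COL4A1, ITGA5, the MMPs other than MMP7 and MMP14, TIMP3, ZEB1 and SNAI2 can show.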
